A study of Mus musculus with 4 samples.

Results

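Granule enzyme cells were chosen by their UMIs (unique molecular identifiers, which count mRNA molecules) as the cells in which the primary granule enzymes Elane, Mpo, Prtn3 and Ctsg together made up 1% or more of the total while S100a8, S100a9, Ngp, Camp and Ltf, of later neutrophil stages, made up less than 1%. There were 6532 of them among 15421 cells with at least 500 UMIs and at most 20% mitochondrial UMIs. Of these, 3268 came from CML mice given imatinib, 224 from untreated CML mice, 2761 from wild-type (WT) mice given imatinib and 279 from untreated WT mice. All mice were C57BL/6, and all 4 libraries were single-cell inDrop libraries of bone marrow cells sorted as Lin- Sca1+ cKit+ (LSK), a gate that holds stem and multipotent progenitor cells. Chronic myeloid leukaemia (CML) is driven in patients by the BCR-ABL1 kinase, which imatinib inhibits, and the drug also inhibits Kit and the receptor Csf1r. The treated mice received 400 mg/kg of the drug by gavage every other day, for 30 days by one label and 4 weeks by another. How CML arose in these mice, the number of animals behind each library, and their sex and age were not given in the sources used here. Each group was 1 library, so no difference between groups has a replicate check. Intervals are 95% exact intervals that cover counting error only, and a limit given for a count of 0 is 3 counts out of the cells looked at.

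In the bone marrow, granulocyte-monocyte progenitors give rise to the neutrophil and the monocyte line. They make mRNA for the proteases and peroxidase of the primary (azurophil) granules, where these are packed with the proteoglycan serglycin. Gfi1 is a transcription factor of the neutrophil branch and Irf8 one of the monocyte and dendritic branch. Normal cells of this stage carry little or no surface Sca1, which is encoded by Ly6a, so that the classical gate for stem cells is meant to leave them out.

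The 4 enzymes that defined the cells were neutrophil elastase (Elane, chr10:79886247-79888215), proteinase 3 (Prtn3, chr10:79874476-79883174), myeloperoxidase (Mpo, chr11:87793581-87804413) and cathepsin G (Ctsg, chr14:56099881-56102574), all protein-coding genes with GRCm38 coordinates from GENCODE. Their promoters are printed because these 4 genes define the cells. Each window runs 5′ to 3′ on the gene's strand from 250 bases before to 50 bases after the RefSeq start (GRCm38.p6), with the PU.1-type letters GAGGAA, searched on both strands, in capitals.
Elane, chr10:79886062-79886361, plus strand: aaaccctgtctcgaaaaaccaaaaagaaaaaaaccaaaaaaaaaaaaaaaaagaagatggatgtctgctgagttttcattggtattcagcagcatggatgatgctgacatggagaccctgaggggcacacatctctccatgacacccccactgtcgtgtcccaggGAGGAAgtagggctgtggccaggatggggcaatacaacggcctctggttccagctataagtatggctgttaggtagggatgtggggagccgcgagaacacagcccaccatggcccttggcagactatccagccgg
Mpo, chr11:87793534-87793833, plus strand: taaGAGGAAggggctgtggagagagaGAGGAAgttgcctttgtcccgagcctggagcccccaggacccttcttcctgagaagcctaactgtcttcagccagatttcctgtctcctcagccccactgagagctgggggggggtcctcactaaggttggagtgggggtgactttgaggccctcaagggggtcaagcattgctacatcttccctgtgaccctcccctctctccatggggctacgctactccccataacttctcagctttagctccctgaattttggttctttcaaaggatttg
Prtn3, chr10:79879417-79879716, plus strand: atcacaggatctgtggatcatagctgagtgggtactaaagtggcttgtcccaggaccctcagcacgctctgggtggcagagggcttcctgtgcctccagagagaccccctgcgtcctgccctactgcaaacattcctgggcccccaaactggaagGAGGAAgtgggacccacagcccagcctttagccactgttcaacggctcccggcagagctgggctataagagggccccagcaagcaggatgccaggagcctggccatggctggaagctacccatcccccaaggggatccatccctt
Ctsg, chr14:56102525-56102824, minus strand: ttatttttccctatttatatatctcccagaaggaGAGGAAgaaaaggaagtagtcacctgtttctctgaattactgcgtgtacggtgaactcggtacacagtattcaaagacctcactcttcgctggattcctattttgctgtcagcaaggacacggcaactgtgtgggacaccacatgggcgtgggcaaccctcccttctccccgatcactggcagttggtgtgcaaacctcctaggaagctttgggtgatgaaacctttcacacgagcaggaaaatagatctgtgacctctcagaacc
All 4 windows held GAGGAA, with 2 matches for Mpo and 1 for each of the others, and so did 9289 (28.3%) of 32851 RefSeq promoter windows of this length. The C/EBP-type letters TTNNGNAA were in none of the 4 windows and in 13365 (40.7%) of all windows, and no matches overlapped. These are matches of letters in a window and not measured binding sites.

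Granule enzyme cells made up most of the cells kept in the imatinib libraries and fewer than 1 in 10 in the untreated ones. The share was 63.2% (61.9 to 64.6%) in imatinib-treated CML, 7.39% (6.48 to 8.38%) in untreated CML, 65.9% (64.5 to 67.3%) in imatinib-treated WT and 9.20% (8.19 to 10.3%) in untreated WT marrow. The CML and WT libraries of the same treatment lay within a few percentage points of each other. The libraries also differed in how they were deposited: the smallest cell held 200 UMIs in imatinib-treated CML, 1006 in untreated CML, 200 in imatinib-treated WT and 1001 in untreated WT marrow. Treatment, depth and this floor on deposited cells cannot be told apart. Enzyme cells had a median of 1367.5 UMIs in imatinib-treated CML, 8289.5 in untreated CML, 1934 in imatinib-treated WT and 7187 in untreated WT marrow. They were deeper than the other cells of their own library, whose medians were 924.5 UMIs in imatinib-treated CML, 4942.5 in untreated CML, 906 in imatinib-treated WT and 3478 in untreated WT marrow. When every cell was thinned to 500 UMIs before the rule was applied, the shares were 61.6% in imatinib-treated CML, 9.70% in untreated CML, 65.3% in imatinib-treated WT and 10.3% in untreated WT marrow.

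**Figure D1:**
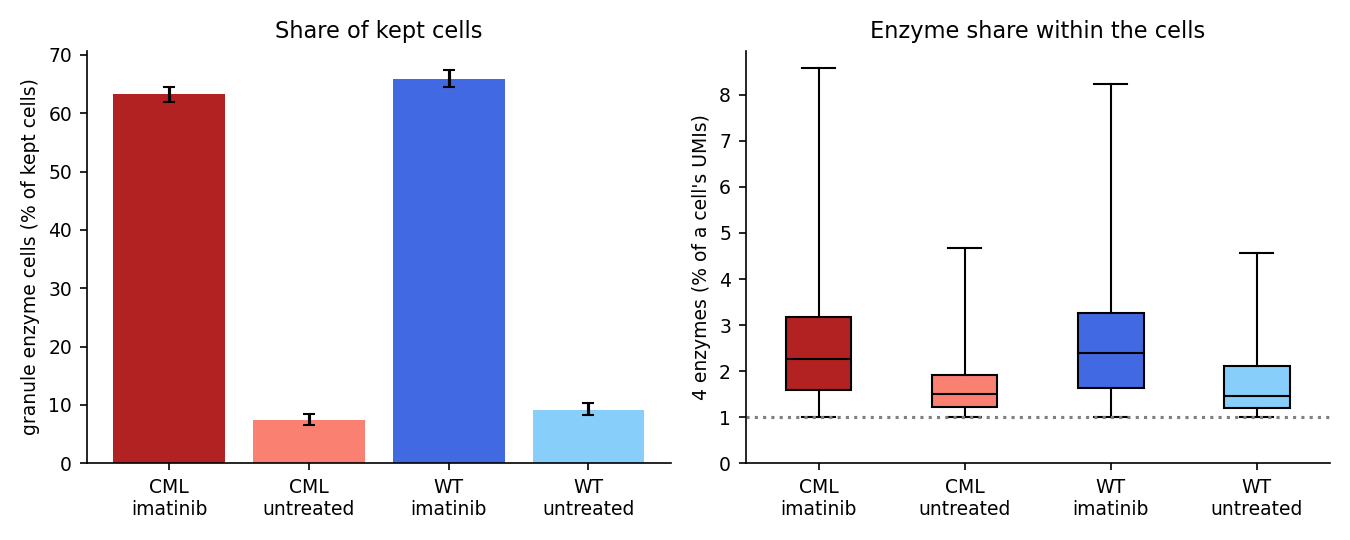
Left, granule enzyme cells as a percent of kept cells in each library, with 95% exact binomial intervals of counting error as bars; right, percent of a cell's UMIs from the 4 enzymes, with boxes for median and quartiles and whiskers to the lowest and highest cell. The share of cells was 63.2% in imatinib-treated CML, 7.39% in untreated CML, 65.9% in imatinib-treated WT and 9.20% in untreated WT marrow, and the medians on the right were 2.27%, 1.50%, 2.40% and 1.46% in the same order.

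The libraries differed in ways that bear on every comparison below. Xist, the RNA of the inactive X chromosome of female cells, was at 9.86 CPM (counts per 1000000 UMIs, here UMIs summed over a library's enzyme cells) in imatinib-treated CML, 1328 in untreated CML, 2.50 in imatinib-treated WT and 1.47 in untreated WT cells, while the Y-linked Ddx3y was at 56.7 CPM in imatinib-treated CML, 0.841 in untreated CML, 29.4 in imatinib-treated WT and 48.0 in untreated WT cells. In the other cells Xist was at 276 CPM in imatinib-treated CML, 2506 in untreated CML, 7.26 in imatinib-treated WT and 1.53 in untreated WT marrow. The untreated CML library had the highest Xist and lowest Ddx3y, with an intermediate Xist level in the other cells of imatinib-treated CML marrow, and its other differences cannot be told apart from a difference between animals of unlike sex. Barcode names were shared by 1135 columns of the untreated and imatinib-treated WT libraries and by 80 to 340 columns of the other pairs. Same-named WT columns correlated with a median of 0.314, and neighbouring names with 0.315. Doublets were not called. Cells with at least 0.5% of their UMIs from mast cell and basophil genes numbered 107 (3.27%) of the imatinib-treated CML enzyme cells and 35 (1.27%) of the imatinib-treated WT enzyme cells, and 0 in both untreated libraries, which allows up to 1.34% of the untreated CML and 1.08% of the untreated WT enzyme cells.

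The defining markers of the named stage that the rule did not use went with the label. Ms4a3, a membrane protein gene used to trace this progenitor (chr19:11629496-11640851), had 1011 CPM in imatinib-treated CML, 912 in untreated CML, 1060 in imatinib-treated WT and 1020 in untreated WT enzyme cells, against 106 to 284 CPM in the other cells of the 4 libraries. Gstm1, a glutathione transferase (chr3:108012255-108017973), had 2780 CPM in imatinib-treated CML, 2166 in untreated CML, 2758 in imatinib-treated WT and 1949 in untreated WT enzyme cells, against 226 to 513 CPM in the other cells. Both genes were higher in the enzyme cells of every library, by 1.90 to 3.26 log2 units for Ms4a3 and 2.43 to 3.29 for Gstm1. Reads of Gstm1 may be shared with near-identical family members. At 500 UMIs per cell Ms4a3 was detected in 34.7% of imatinib-treated CML, 36.6% of untreated CML, 34.9% of imatinib-treated WT and 36.9% of untreated WT enzyme cells, and without thinning in 63.0% of imatinib-treated CML, 94.2% of untreated CML, 72.3% of imatinib-treated WT and 89.2% of untreated WT cells. So the detection of Ms4a3 was nearly level across the libraries once depth was the same.

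Kit, which encodes a receptor the sort selected for, had 156 CPM in imatinib-treated CML, 113 in untreated CML, 168 in imatinib-treated WT and 118 in untreated WT enzyme cells, and lay within 0.45 log2 units of the other cells of each library. Ly6a, which encodes Sca1, had 44.2 CPM in imatinib-treated CML, 29.5 in untreated CML, 38.6 in imatinib-treated WT and 34.8 in untreated WT enzyme cells. In the other cells Ly6a had 29.1 CPM in imatinib-treated CML, 104 in untreated CML, 56.6 in imatinib-treated WT and 221 in untreated WT marrow. At 500 UMIs per cell Ly6a mRNA was seen in 2.05% of imatinib-treated CML, 0% of untreated CML (which allows up to 1.34%), 1.63% of imatinib-treated WT and 1.43% of untreated WT enzyme cells. In the other cells Ly6a was seen in 1.75% of imatinib-treated and 5.09% of untreated CML cells. For WT the shares were 2.70% with imatinib and 6.94% untreated. Kit mRNA was seen in 3.58 to 7.86% of enzyme cells across the libraries at this depth. The mRNA behind both of the gate's markers was thus sparse in the enzyme cells of every library. Ly6a was about as sparse in the other cells of the imatinib libraries, and surface protein was not measured in the files.

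Cells lay close to the threshold on both sides in every library. From 0.9% to just under 1% of UMIs there were 103 cells in imatinib-treated CML, 37 in untreated CML, 84 in imatinib-treated WT and 39 in untreated WT marrow, and from 1% to 1.1% there were 126 in imatinib-treated CML, 29 in untreated CML, 97 in imatinib-treated WT and 36 in untreated WT marrow. Ms4a3 was at 547 to 727 CPM just inside and 508 to 793 CPM just outside. Flt3, a receptor gene of multipotent and lymphoid progenitors, had 31.5 CPM just inside and 40.8 just outside in imatinib-treated CML, 31.1 and 44.5 in untreated CML, 36.9 and 66.3 in imatinib-treated WT, and 59.5 and 140 in untreated WT marrow. The cells are a range of enzyme share set by the rule. The enzyme share had a median of 2.27% and a highest value of 8.58% in imatinib-treated CML, 1.50% and 4.67% in untreated CML, 2.40% and 8.23% in imatinib-treated WT, and 1.46% and 4.57% in untreated WT enzyme cells. Cells with 1 to 2% made up 41.2% of the enzyme cells in imatinib-treated CML, 78.6% in untreated CML, 37.1% in imatinib-treated WT and 73.5% in untreated WT marrow. Above 5% there were 45 cells in imatinib-treated CML, 0 in untreated CML, 32 in imatinib-treated WT and 0 in untreated WT marrow, counts of 0 that allow up to 1.34% of the untreated CML and 1.08% of the untreated WT enzyme cells.

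Elane in cells of other types gives a view of stray enzyme RNA in the droplets. Plasma and erythroid cells, which should lack Elane, had an Elane UMI at 500 UMIs per cell in 6.02% of 83 cells in imatinib-treated CML, 2.08% of 48 in untreated CML, 0 of 8 in imatinib-treated WT (which allows up to 37.5%) and 6.48% of 108 in untreated WT marrow. Of these cells, 1 in imatinib-treated CML and 2 in untreated WT marrow were also enzyme cells. Among enzyme cells the share was 93.5% in imatinib-treated CML, 93.3% in untreated CML, 94.97% in imatinib-treated WT and 84.9% in untreated WT marrow. These cells were chosen in part for Elane, so a high share follows from the rule. Over all their UMIs the plasma and erythroid cells had 0.0171 to 0.0554% from the 4 enzymes. All 4 enzymes were seen together at this depth in 58.4% of imatinib-treated CML, 41.1% of untreated CML, 60.5% of imatinib-treated WT and 49.1% of untreated WT enzyme cells.

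Outside the rule's genes, the enzyme cells carried more mRNA for other granule proteins and, in Alas1, for haem synthesis than the rest of their library, with some receptor genes among the higher and some among the lower ones. Genes were measured at 100 CPM or more on either side, and a gene at least 2-fold apart with 20 UMIs or more on the higher side was called. Higher in the enzyme cells were 259 of 2278 genes (11.4%) in imatinib-treated CML, 99 of 2074 (4.77%) in untreated CML, 95 of 2048 (4.64%) in imatinib-treated WT and 116 of 2053 (5.65%) in untreated WT marrow. Lower were 297 genes (13%) in imatinib-treated CML, 103 (4.97%) in untreated CML, 94 (4.59%) in imatinib-treated WT and 101 (4.92%) in untreated WT marrow. Of 1583 genes measured in every library, 43 were higher and 9 lower in all 4. These differences follow from how the cells were chosen and are given as a description.

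Among granule partners, 15 listed genes whose products are packed with, process or accompany the enzymes, 10 of 13 measured were at least 2-fold higher in imatinib-treated CML, 7 of 10 in untreated CML, 6 of 14 in imatinib-treated WT and 8 of 13 in untreated WT enzyme cells. Called lower were 2 of 14 in imatinib-treated WT, Ctsc and Lyz2, and 0 in the other libraries. Alas1, the first enzyme of haem synthesis and so of the cofactor of myeloperoxidase, had 322 CPM in imatinib-treated CML, 109 in untreated CML, 312 in imatinib-treated WT and 119 in untreated WT enzyme cells, against 15.8 to 47.2 CPM in the other cells. Prss57, a serine protease of the same granules that lies beside Prtn3 and Elane on chromosome 10 (chr10:79781474-79790961), had 552 CPM in imatinib-treated CML, 327 in untreated CML, 581 in imatinib-treated WT and 340 in untreated WT enzyme cells, against 50.4 to 111 CPM in the other cells. Both were thus higher in the enzyme cells of every library, Alas1 by 2.70 to 3.02 and Prss57 by 2.22 to 3.09 log2 units. Srgn, which encodes serglycin, had 6575 CPM in imatinib-treated CML, 5445 in untreated CML, 6169 in imatinib-treated WT and 4913 in untreated WT enzyme cells. It was 0.87 to 1.83 log2 units higher than in the other cells, and past 2-fold in both imatinib libraries only. Ctsc, the protease that activates the granule serine proteases, was called higher in no library: it had 112 CPM in the enzyme cells and 145 in the other cells of imatinib-treated CML, 394 and 245 in untreated CML, 152 and 331 in imatinib-treated WT, where it was called lower, and 204 and 130 in untreated WT marrow.

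Receptor and surface genes were mixed: of the listed ones measured, 7 of 12 were higher and 0 lower in imatinib-treated CML, 4 of 13 higher and 2 lower in untreated CML, 3 of 13 higher and 1 lower in imatinib-treated WT, and 5 of 13 higher and 2 lower in untreated WT enzyme cells. The list's median log2 ratio was 1.19 in imatinib-treated CML, 0.28 in untreated CML, -0.32 in imatinib-treated WT and 0.26 in untreated WT marrow. Fcgr3, Clec12a and Ly6c2 were the members called higher in all 4. The Fc receptor gene Fcgr3 had 349 CPM in imatinib-treated CML, 179 in untreated CML, 373 in imatinib-treated WT and 200 in untreated WT enzyme cells, against 12.4 to 102 CPM in the other cells. Clec12a, a lectin receptor, had 631 to 1248 CPM in the enzyme cells against 90.2 to 357 CPM in the other cells. Trem3, a myeloid receptor, had 220 to 279 CPM against 17.7 to 65.4 CPM. Lta4h, which makes leukotriene B4, had 965 to 1104 CPM against 169 to 332 CPM. Trem3 and Lta4h, which are outside that list, were also called higher in all 4 libraries. Of the NADPH oxidase subunits, 4 of 4 measured were higher in imatinib-treated CML, 2 of 4 in untreated CML, 0 of 4 in imatinib-treated WT and 3 of 5 in untreated WT enzyme cells, and Cybb, its catalytic subunit, was at 122 to 179 CPM. Of the listed chaperones and enzymes of the endoplasmic reticulum, 6 of 14 were higher in imatinib-treated CML, 9 of 15 in untreated CML, 0 of 14 in imatinib-treated WT and 8 of 15 in untreated WT enzyme cells.

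Among myeloid transcription factors, Gfi1 (chr5:107716657-107726036) was higher in the enzyme cells of every library, with 257 CPM in imatinib-treated CML, 212 in untreated CML, 261 in imatinib-treated WT and 158 in untreated WT cells, against 33.8 to 63.3 CPM in the others. Spi1, which encodes PU.1, had 301 CPM in imatinib-treated CML, 172 in untreated CML, 274 in imatinib-treated WT and 172 in untreated WT enzyme cells and passed 2-fold over the other cells in imatinib-treated CML marrow. Cebpa, needed for this stage to form, was at 74.9 to 126 CPM and passed 2-fold in both CML libraries. Gfi1 was the listed factor called higher in all 4 libraries, and Gata2, a factor of stem, mast and megakaryocyte cells, was called lower in all 4, with 11.4 to 44.2 CPM in the enzyme cells and 198 to 434 CPM in the others.

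Markers of other lineages were among the genes on the lower side. Car2, an erythroid carbonic anhydrase, had 43.0 CPM in the enzyme cells and 2492 in the other cells of imatinib-treated CML, 33.7 and 798 in untreated CML, 23.1 and 248 in imatinib-treated WT, and 34.8 and 645 in untreated WT marrow. Cpa3, a mast cell protease, had 171 CPM in the enzyme cells and 1604 in the other cells of imatinib-treated CML, 18.5 and 319 in untreated CML, 38.3 and 1015 in imatinib-treated WT, and 10.3 and 124 in untreated WT marrow. Of 12 listed stem cell genes, 2 were measured in imatinib-treated CML, 5 in untreated CML, 3 in imatinib-treated WT and 3 in untreated WT marrow. All of these were lower, Ctla2a and Gata2 among them, but a gene could be measured through the other cells alone, which favours that direction. All 12 genes summed to 171 CPM in the enzyme cells and 580 in the other cells of imatinib-treated CML, and 149 and 1930 in untreated CML. The sums were 117 and 1018 in imatinib-treated WT, and 177 and 2157 in untreated WT marrow. Cd34, a surface marker of progenitors, was closer to the rest, with 166 CPM in imatinib-treated CML, 175 in untreated CML, 143 in imatinib-treated WT and 261 in untreated WT enzyme cells, and it passed 2-fold lower in imatinib-treated WT marrow only.

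**Figure D2:**
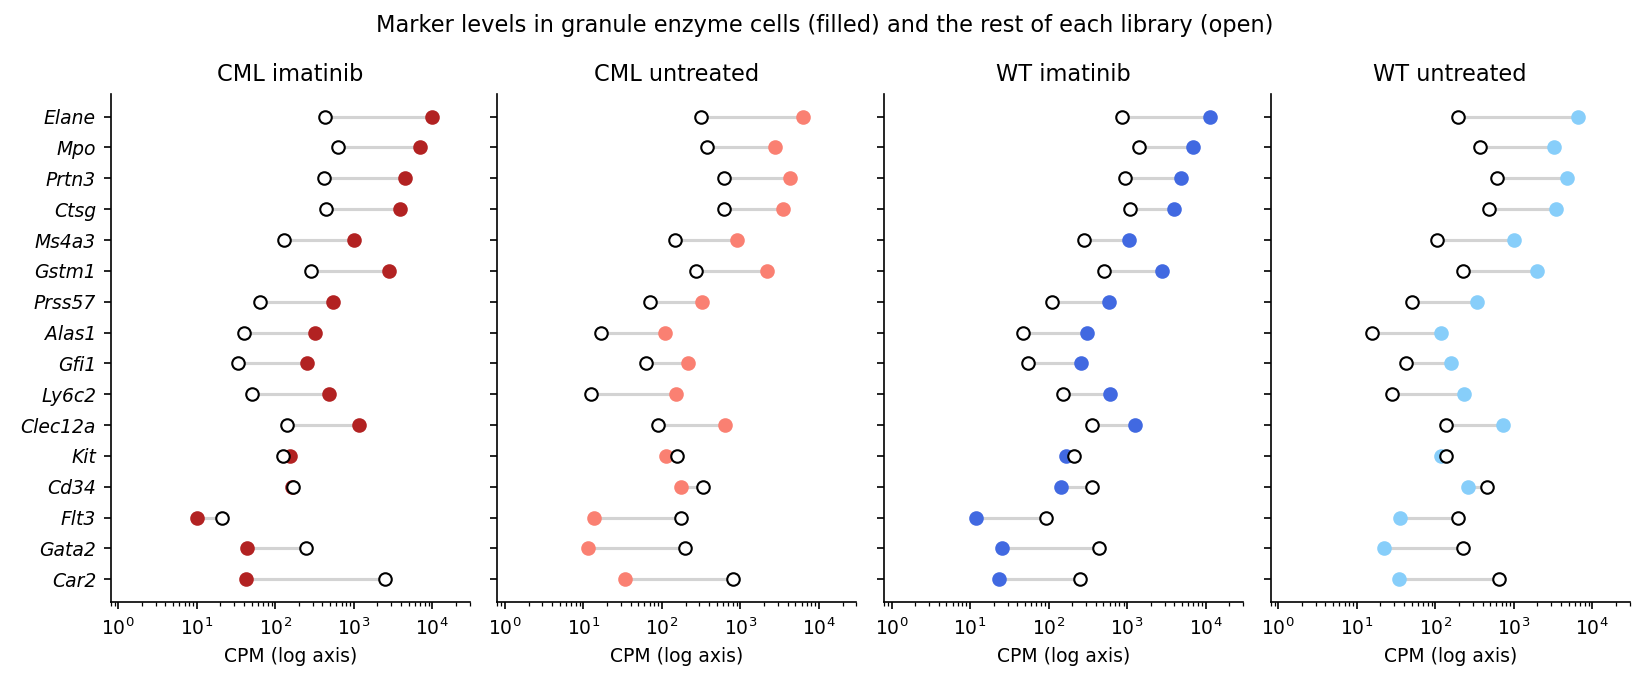
Level of 16 genes (CPM, log axis) in granule enzyme cells, as filled points, and in the rest of the library, as open points, with 1 panel per library. Ms4a3, Gstm1, Prss57, Alas1 and Gfi1 sat higher in the enzyme cells of all 4 libraries, Gata2 and Car2 lower, and Kit within 0.45 log2 units.

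Transcripts of the S phase were seen in a larger share of untreated than of imatinib-treated enzyme cells at equal depth, but the intervals overlapped within each genotype. Shares for the G2 and M phases were closer together. At 500 UMIs per cell, 2 or more UMIs of the S-phase list were in 44.4% (42.7 to 46.1%) of imatinib-treated and 51.3% (44.6 to 58.1%) of untreated CML enzyme cells. In WT enzyme cells the shares were 47.9% (46.0 to 49.8%) with imatinib and 54.8% (48.8 to 60.8%) untreated. The G2 and M list was met in 39.9% of imatinib-treated CML, 39.3% of untreated CML, 38.1% of imatinib-treated WT and 42.7% of untreated WT enzyme cells. Without thinning it was met in 68.1% of imatinib-treated CML, 95.5% of untreated CML, 73.7% of imatinib-treated WT and 94.98% of untreated WT enzyme cells, so that comparisons of this share need equal depth.

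Within each library, cells with more enzyme mRNA also had more Gfi1 and granule partner mRNA, and cells with less had more mRNA of monocyte genes. The cells with 2 to 5% were set against those with 1 to 2%, which was 1876 against 1347 cells in imatinib-treated CML, 48 against 176 in untreated CML, 1706 against 1023 in imatinib-treated WT and 74 against 205 in untreated WT marrow. Gfi1 had 335 CPM in the 2 to 5% class and 123 CPM in the 1 to 2% class of imatinib-treated CML cells, 364 and 175 in untreated CML, 333 and 89.9 in imatinib-treated WT, and 288 and 100.3 in untreated WT cells. It was thus higher in the upper class of every library, by 1.06 to 1.89 log2 units. Irf8 (chr8:120736358-120756694) had 123 CPM in the upper and 244 CPM in the lower class of imatinib-treated CML cells, 44.7 and 184 in untreated CML, 134 and 342 in imatinib-treated WT, and 97.2 and 415 in untreated WT cells. Its direction was the reverse of that of Gfi1 in all 4 libraries, with log2 ratios of -0.99 to -2.10.

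The listed genes divided along the same line. Of 7 measured monocyte-primed genes, 6 were lower in the 2 to 5% class of every library, and the list's median log2 ratio was -0.99 in imatinib-treated CML, -1.50 in untreated CML, -1.35 in imatinib-treated WT and -2.10 in untreated WT cells. Ly86, which encodes MD-1, a protein that pairs with CD180 on monocytes and B cells, showed -1.46 in imatinib-treated CML, -2.95 in untreated CML, -2.05 in imatinib-treated WT and -3.29 in untreated WT cells, and the chemokine receptor gene Ccr2 -1.24 to -2.13 over the libraries. The exception was Ly6c2, a surface antigen shared by monocytes and early neutrophils, at 0.69 to 0.95. Of 13 measured granule partners, 8 were higher in the upper class of every library, with Nkg7 at 1.09 to 1.62, Prss57 at 0.81 to 1.22 and Srgn at 0.86 to 1.29 log2 units. Ctsc again went the other way, at -1.34 to -2.16. Ms4a3 was 0.61 to 1.21 and Gstm1 0.87 to 1.13 log2 units higher in the upper class.

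Ifitm3 and Cd34 were also on the low side of this split. Ifitm3, an interferon-inducible membrane protein gene, had 71.6 CPM in the upper and 239 CPM in the lower class of imatinib-treated CML cells, 115 and 238 in untreated CML, 70.6 and 238 in imatinib-treated WT, and 119 and 403 in untreated WT cells. Cd34 showed log2 ratios of -1.38 in imatinib-treated CML, -0.85 in untreated CML, -1.40 in imatinib-treated WT and -1.81 in untreated WT cells. Kit did not share this drop, at 0.01 to 0.52 log2 units. Ly6a was mixed, with 51.3 CPM in the upper and 32.8 CPM in the lower class of imatinib-treated CML cells. It had 23.4 and 30.9 CPM in untreated CML, 35.1 and 46.8 in imatinib-treated WT, and 20.7 and 41.0 in untreated WT cells. Of 3225 genes at 50 CPM or more in every library, 486 had a positive and 784 a negative ratio in all 4, and in all 4 the ratio passed 2-fold upward for 15 genes and downward for 8. The 2 classes were cut from the enzyme share, so these ratios describe the range of cells and carry no test. In cells of 1000 to 3000 UMIs, Gfi1 was 1.50 log2 units higher in the upper class in imatinib-treated CML and 1.63 in imatinib-treated WT cells, and Irf8 was at -1.05 in imatinib-treated CML and -0.997 in imatinib-treated WT cells. The untreated libraries had 5 against 27 such cells in CML and 13 against 31 in WT marrow, too few for this view.

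**Figure D3:**
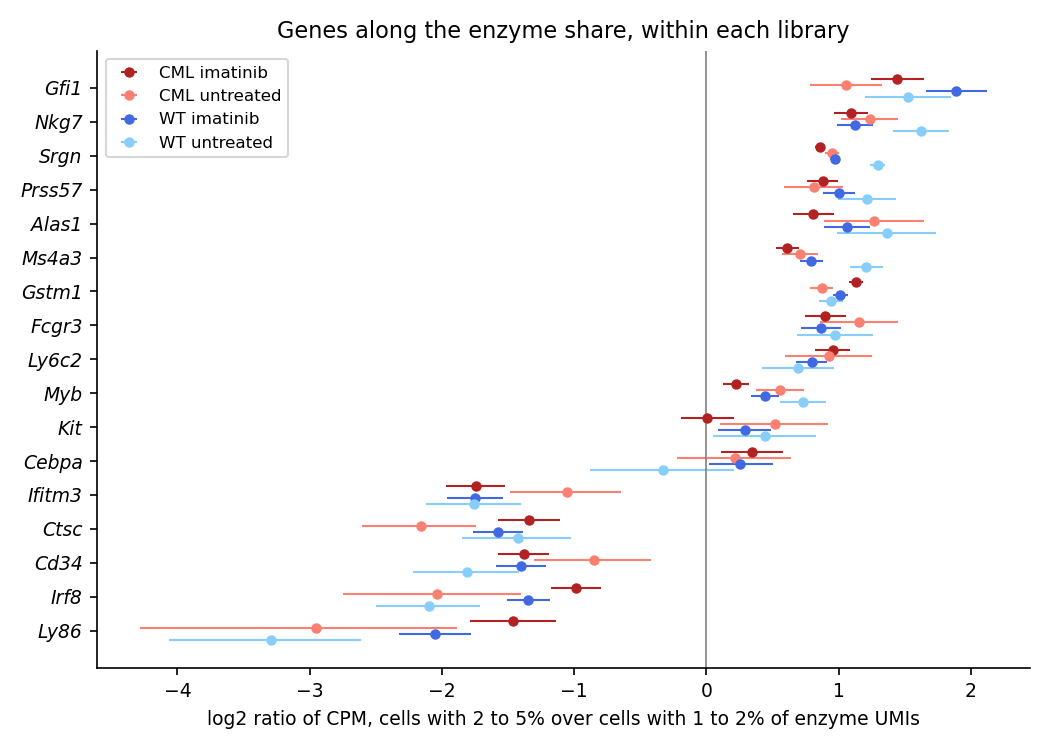
Log2 ratio of CPM in cells with 2 to 5% of UMIs from the enzymes over cells with 1 to 2%, by gene and library, with 95% exact intervals of counting error as bars. Gfi1, Nkg7, Srgn and Prss57 lie above 0 and Ifitm3, Ctsc, Cd34, Irf8 and Ly86 below 0 in all 4 libraries.

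Imatinib against no treatment was compared in CML and in WT enzyme cells, which share no library. In CML, 213 of 2088 measured genes (10.2%) were at least 2-fold apart, 106 (5.08%) higher and 107 (5.12%) lower with imatinib, with a median log2 ratio over measured genes of -0.13. In WT, 129 of 2014 (6.41%) were apart, 79 (3.92%) higher and 50 (2.48%) lower, with a median of -0.08. Called higher in both were 55 genes, 51.9% of the CML and 69.6% of the WT list, and called lower in both were 23, 21.5% of the CML and 46% of the WT list. No gene was called in opposite directions. When totals left out the rule's genes and the ribosomal, mitochondrial and haemoglobin genes, the median in CML was -0.02 and 150 of 237 called genes (63.3%, against 49.8%) were higher. In WT, 67.9% were then higher, against 61.2%.

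Of the 4 enzymes, whose sum the rule used, Mpo passed 2-fold higher with imatinib in both genotypes and Elane, Ctsg and Prtn3 did not. Their values are a description, since they chose the cells. Mpo had 6968 CPM in imatinib-treated CML, 2781 in untreated CML, 6825 in imatinib-treated WT and 3293 in untreated WT enzyme cells. Elane had 10044 CPM in imatinib-treated CML, 6253 in untreated CML, 11228 in imatinib-treated WT and 6579 in untreated WT cells. With imatinib, Mpo was 1.33 (1.29 to 1.36) log2 units higher in CML and 1.05 (1.01 to 1.09) in WT cells. Elane was 0.68 log2 units higher in CML and 0.77 in WT cells, Ctsg 0.17 in CML and 0.22 in WT, and Prtn3 0.07 in CML and 0.02 in WT. As a share of the enzymes' own UMIs, Mpo was 27.4% in imatinib-treated CML, 16.5% in untreated CML, 25.4% in imatinib-treated WT and 18.2% in untreated WT cells, and Prtn3 was 17.7% in imatinib-treated CML, 25.6% in untreated CML, 17.9% in imatinib-treated WT and 26.3% in untreated WT cells. In cells with 1 to 2% from the enzymes, where the sum is held in a narrow range, Mpo had 4573 CPM in imatinib-treated CML, 2431 in untreated CML, 4327 in imatinib-treated WT and 2700 in untreated WT cells. In the same cells Elane was nearly level, with 4857 CPM in imatinib-treated CML, 4937 in untreated CML, 4814 in imatinib-treated WT and 4496 in untreated WT marrow. Prtn3 in these cells had 3093 CPM in imatinib-treated CML, 3669 in untreated CML, 3196 in imatinib-treated WT and 3733 in untreated WT marrow.

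Alas1 followed Mpo. It was 1.56 (1.37 to 1.75) log2 units higher with imatinib in CML and 1.38 (1.19 to 1.58) in WT enzyme cells, and in the 1 to 2% class it had 216 CPM in imatinib-treated CML, 85.5 in untreated CML, 177 in imatinib-treated WT and 80.5 in untreated WT cells. Cst7, an inhibitor of cathepsins such as the one encoded by Ctsc, had 283 CPM in imatinib-treated CML, 91.3 in untreated CML, 288 in imatinib-treated WT and 107 in untreated WT cells. Ctsc itself was lower in CML, with 112 CPM with imatinib and 394 untreated (log2 ratio -1.81), and had 152 CPM with imatinib and 204 untreated in WT cells (-0.43). Among cells above 2% the Ctsc ratio in CML was -0.54. Of the granule partners, 2 of 13 were higher and 2 of 13 lower in CML, with a list median of 0.66, and 3 of 13 were higher in WT, with a median of 0.33. Ly6c2, Cd63, a granule membrane tetraspanin, and Mgst2, a glutathione transferase, were higher in both, by 1.69, 1.40 and 1.05 log2 units in CML and 1.38, 1.24 and 1.05 in WT enzyme cells.

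Some genes of later neutrophil stages were higher with imatinib in both genotypes. Of 15 listed neutrophil-primed genes, 4 were measured in CML, 3 of them called higher (median 1.74), and 3 in WT, all called higher (median 1.93). Fcnb and Wfdc21 passed 100 CPM in the imatinib libraries only, so these counts and medians lean upward by the filter. In WT so did Lcn2, so all 3 genes measured there were measured through the imatinib library alone. All 15 genes summed to 1290 CPM in imatinib-treated CML, 491 in untreated CML, 947 in imatinib-treated WT and 274 in untreated WT enzyme cells. Fcnb, a secreted lectin of neutrophil granules, had 152 CPM in imatinib-treated CML, 30.3 in untreated CML, 187 in imatinib-treated WT and 14.7 in untreated WT cells, and 1 cell held 76.4% of its UMIs in untreated CML marrow. Among cells with 2% or more of enzyme UMIs the Fcnb ratio in CML was 0.60 and not called. Wfdc21, which encodes a secreted WAP-domain protein, had 256 CPM in imatinib-treated CML, 68.2 in untreated CML, 255 in imatinib-treated WT and 67.1 in untreated WT cells. S100a8, which the rule capped and which is therefore given as a description only, had 843 CPM in imatinib-treated CML, 93.0 in untreated CML, 679 in imatinib-treated WT and 71.0 in untreated WT cells. In untreated CML 1 cell held 50.7% of its UMIs, and the level without that cell was 45.9 CPM. Its ratio ran in CML from 1.02 in cells with 2% or more to 6.45 in cells with 1 to 2% of enzyme UMIs, and in WT from 1.98 in the richer cells to 5.60 in the others. Cells with late genes at 1% or more, which the rule sets aside, numbered 469 in imatinib-treated CML, 0 in untreated CML, 242 in imatinib-treated WT and 0 in untreated WT marrow, where 0 allows up to 0.0989% of the kept cells in either untreated library. Free RNA from such cells was not tested for its part in the S100a8 values. C3, complement component 3, was 2.38 log2 units higher in CML and 2.12 in WT cells, and Ltb4r1, the leukotriene B4 receptor, 2.99 in CML and 2.63 in WT cells. In the 1 to 2% class neither C3 in WT nor Ltb4r1 in either genotype was called, with ratios of 1.67 for C3 and 2.43 in CML and 3.21 in WT for Ltb4r1. Tgfb1, a growth factor gene, was 2.04 log2 units higher in CML and 2.09 in WT cells.

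Mast cell and basophil proteases led the higher side. Prss34 had 66.2 CPM in imatinib-treated CML, 1.26 in untreated CML, 102 in imatinib-treated WT and 0.489 in untreated WT enzyme cells, and Cma1 had 104 CPM in imatinib-treated CML, 1.68 in untreated CML, 2.66 in imatinib-treated WT and 0 in untreated WT cells. In the other cells of these libraries Prss34 had 904 CPM in imatinib-treated CML, 0.212 in untreated CML, 4012 in imatinib-treated WT and 0 in untreated WT marrow. The summed mast cell and basophil list was at 697 CPM in imatinib-treated CML, 114 in untreated CML, 414 in imatinib-treated WT and 109 in untreated WT enzyme cells. Without cells holding 0.5% or more of other lineages' genes, Prss34 in WT and Cma1 in CML were no longer called. Of the earlier calls, 102 of 106 higher and 103 of 107 lower were kept in CML, and 78 of 79 higher and 49 of 50 lower in WT. Few cells carried these genes: Prss34 was seen in 98 of the 3268 imatinib-treated CML and 85 of the 2761 imatinib-treated WT enzyme cells, and 5 cells held 53.5% of its UMIs in imatinib-treated CML and 53.9% in imatinib-treated WT. Cma1 was seen in 203 (6.21%) of the imatinib-treated CML enzyme cells.

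On the lower side with imatinib were 2 folding genes, Pdia4 and Sdf2l1, the kinase gene Pim1 and genes of the immediate early response. Pdia4, a disulfide isomerase of the endoplasmic reticulum, had 42.4 CPM in imatinib-treated CML, 436 in untreated CML, 51.1 in imatinib-treated WT and 246 in untreated WT enzyme cells, which gave log2 ratios of -3.36 (-3.57 to -3.16) in CML and -2.27 (-2.47 to -2.07) in WT. Sdf2l1, a partner of the chaperone BiP, had 218 CPM in imatinib-treated CML, 846 in untreated CML, 248 in imatinib-treated WT and 590 in untreated WT cells. These were the 2 of 15 measured members of the folding list that were called in each genotype, and the list's medians were -0.42 in CML and 0.01 in WT, where 8 of 15 lay above 0. Calr, the lectin chaperone needed for folding of Mpo, had 2881 CPM in imatinib-treated CML, 4714 in untreated CML, 3223 in imatinib-treated WT and 4589 in untreated WT cells, and P4hb, a disulfide isomerase, had 1324 CPM in imatinib-treated CML, 721 in untreated CML, 1539 in imatinib-treated WT and 845 in untreated WT cells. Neither passed 2-fold, and they lay on opposite sides of 0 in both genotypes.

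Pim1, a kinase gene induced by STAT5, had 215 CPM in imatinib-treated CML, 821 in untreated CML, 151 in imatinib-treated WT and 562 in untreated WT enzyme cells, with log2 ratios of -1.93 in CML and -1.90 in WT. Mcl1, a survival gene of the Bcl2 family, was at -1.53 in CML and -1.10 in WT, and Myc, a growth factor-responsive transcription factor, at -1.11 in CML and -0.82 in WT. Of 4 measured STAT5 targets, 3 were lower in CML and 2 in WT, and Cish and Socs2, the closest readouts of STAT5, had 2.11 to 7.22 CPM and were too low to compare. Pim1 and Mcl1 were called lower with imatinib in both genotypes, and the cause was not tested.

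**Figure D4:**
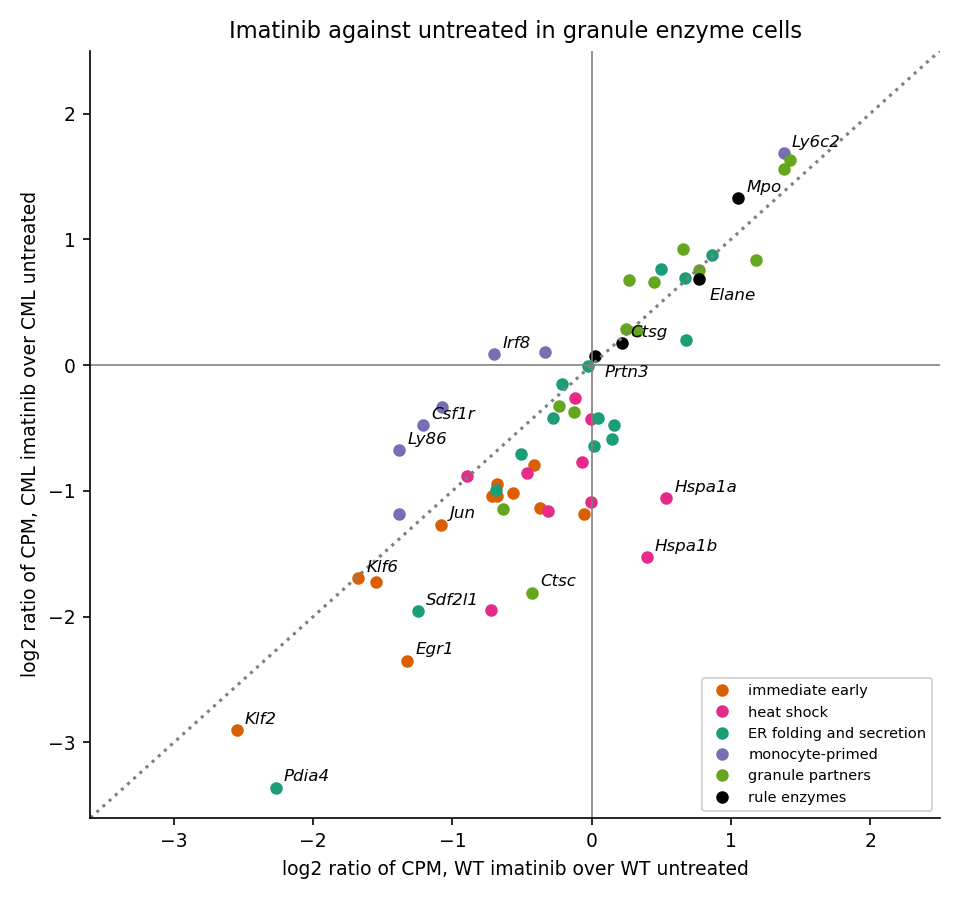
Log2 ratio of imatinib-treated over untreated granule enzyme cells in CML (vertical axis) and in WT (horizontal axis) for measured genes of 6 lists, coloured by list, with a dotted line where both are equal. Mpo and Ly6c2 lie above 0 and Pdia4, Sdf2l1, Klf6 and Jun below 0 in both genotypes, while Hspa1b is at -1.52 in CML and 0.39 in WT.

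Immediate early genes, which cells also induce during dissociation and sorting, were lower with imatinib in 10 of 12 measured members in CML (list median -1.16) and 3 of 7 in WT (median -0.72). A gene could be measured through the untreated cells alone, as Egr1 was in CML, which favours that direction. Jun, an AP-1 subunit, had 504 CPM in imatinib-treated CML, 1215 in untreated CML, 348 in imatinib-treated WT and 735 in untreated WT enzyme cells. Egr1, a zinc finger factor, had 29.2 CPM in imatinib-treated CML, 149 in untreated CML, 28.3 in imatinib-treated WT and 71.0 in untreated WT cells, and in CML cells of 1000 to 3000 UMIs its ratio was -3.35, on too few UMIs for a call. The other cells moved with them: the summed list was at 1379 CPM in imatinib-treated CML, 11706 in untreated CML, 2216 in imatinib-treated WT and 6356 in untreated WT rest cells, and at 1883 CPM in imatinib-treated CML, 4558 in untreated CML, 1425 in imatinib-treated WT and 2703 in untreated WT enzyme cells. Handling of the samples was not tested for its part in this list. Within the untreated libraries the enzyme cells were lower than the rest in 10 of 13 measured members in CML and 10 of 13 in WT marrow, and within the imatinib libraries in 0 of 9 in CML and 1 of 9 in WT.

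Among monocyte genes, more passed 2-fold with imatinib in WT than in CML cells, a difference that was not tested. In WT 4 of 7 measured monocyte-primed genes were lower, namely Ccr2, Csf1r, Ly86 and Ms4a6c, and Ly6c2 was higher, with a list median of -1.07. In CML 1 of 5 was higher and 1 of 5 lower, with a median of 0.09. Csf1r, the macrophage colony-stimulating factor receptor, had 38.4 CPM in imatinib-treated CML, 53.4 in untreated CML, 47.5 in imatinib-treated WT and 110 in untreated WT enzyme cells. Ly86 had 59.7 CPM in imatinib-treated CML, 95.5 in untreated CML, 77.9 in imatinib-treated WT and 204 in untreated WT cells. The untreated WT cells were the high group for both genes. Both passed 100 CPM there only, so they were measured in WT and not in CML. The WT count and median thus lean downward by the filter. All 12 listed genes summed to 1321.5 CPM in imatinib-treated and 1103 in untreated CML enzyme cells. In WT the sums were 1530 CPM with imatinib and 1795 untreated. Among cells above 2% of enzyme UMIs the WT list median was 0.67, so the direction did not hold in the cells richest in enzymes. In the 1 to 2% class Ly86 had 100.9 CPM in imatinib-treated CML, 115 in untreated CML, 167 in imatinib-treated WT and 281 in untreated WT cells.

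CML against WT gave fewer calls, in comparisons that share their libraries with those of imatinib. In untreated enzyme cells 25 of 1981 measured genes (1.26%) were at least 2-fold apart, 17 (0.858%) higher and 8 (0.404%) lower in CML, with a median log2 ratio of 0.01. In imatinib-treated cells 13 of 1837 (0.708%) were apart, 12 (0.653%) higher and 1 (0.0544%) lower, with a median of -0.04. With the scalings that change the split most, 54.8% to 56% of the called genes were higher in untreated CML, against 68% here, and with each cell thinned to 500 UMIs the split turned, with 43 higher and 59 lower (42.2% higher). Elane, Prtn3, Ctsg and Mpo were within 0.24 log2 units of each other in CML and WT cells at either treatment.

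Of the 17 genes called higher in untreated CML enzyme cells, 4 were on the heat shock and 5 on the immediate early list. The heat shock list had 4 of 10 measured members higher (median 0.76) and the immediate early list 5 of 12 (median 0.90). Hspa1b, an inducible HSP70 gene, had 2650 CPM in untreated CML and 442 CPM in untreated WT enzyme cells, a log2 ratio of 2.58 (2.48 to 2.69), and Hspa1a had 828 CPM in untreated CML and 200.2 in untreated WT cells. These 2 genes are near-identical copies whose counts can be split between them. In imatinib-treated cells Hspa1b had 921 CPM in CML and 581 CPM in WT marrow, and no heat shock member was called. The rest of the untreated libraries differed likewise, with Hspa1b at 3706 CPM in CML and 301 CPM in WT marrow, so the gap was seen there too. Among cells of 1000 to 3000 UMIs the Hspa1b ratio was 1.47 and that of Hspa1a 0.18. There 4 of the 17 higher calls were kept, and the Klf2 ratio was reversed.

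On the other side, monocyte-primed genes were lower in untreated CML than in untreated WT enzyme cells, 3 of 7 measured with a median of -0.96. Irf8 had 156 CPM in untreated CML and 318 in untreated WT cells (log2 ratio -1.03, from -1.21 to -0.84). Csf1r was at -1.04 and Ly86 at -1.09. Csf1r and Ly86 passed 100 CPM in untreated WT cells only, so this count and median lean downward by the filter. The 12 listed monocyte-primed genes summed to 1103 CPM in untreated CML and 1795 in untreated WT enzyme cells. Above 2% of enzyme UMIs none of the 3 was called, with ratios of -1.12 for Irf8, -1.03 for Csf1r and -0.95 for Ly86, and Csf1r was at -0.77 after thinning. The ratio of Irf8 in imatinib-treated cells was -0.24, with 166 CPM in CML and 196 CPM in WT cells. Lcn2, a siderophore-binding protein gene of neutrophils, was higher in untreated CML, with 187 CPM against 52.4 in untreated WT cells, a log2 ratio of 1.83 (1.53 to 2.15), and at 1.57 and not called in cells of 1000 to 3000 UMIs. Gatm, a creatine synthesis enzyme gene, had 700.4 CPM in untreated CML and 326 in untreated WT cells, and 329 in imatinib-treated CML and 352 in imatinib-treated WT cells, and its untreated ratio above 2% of enzyme UMIs was 0.38. Antibody genes and Prg2 were carried by single cells: 1 cell held 77.8% of the Igkc UMIs and 88.3% of the Igha UMIs of the untreated WT cells, and 89.4% of the Prg2 UMIs of the untreated CML cells.

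In imatinib-treated cells the 1 gene called lower in CML was Ctse, the aspartic protease cathepsin E (chr1:131638306-131675505). It had 9.16 CPM in imatinib-treated CML, 143 in untreated CML, 252 in imatinib-treated WT and 191 in untreated WT enzyme cells. Imatinib-treated CML cells were the low group, 4.78 (4.38 to 5.21) log2 units below imatinib-treated WT and 3.97 below untreated CML cells. The other cells of that library were not low, with 517 CPM in imatinib-treated CML, 273 in untreated CML, 302 in imatinib-treated WT and 395 in untreated WT rest cells. Ctse stayed at least 2-fold lower than in imatinib-treated WT cells under each alternative tried. Against untreated CML cells it was not called in cells of 1000 to 3000 UMIs or after thinning, where its ratios were -4.31 and -3.50. Anxa1, an anti-inflammatory annexin, had 328 CPM in imatinib-treated CML, 110 in untreated CML, 92.1 in imatinib-treated WT and 68.0 in untreated WT cells, and was 1.83 (1.70 to 1.97) log2 units above imatinib-treated WT cells. Adam9, a membrane metalloprotease gene, was 1.37 log2 units above, and 1.09 and not called among cells with 2% or more of enzyme UMIs. The mast cell genes Cma1 and Cpa3 were 5.29 and 2.16 log2 units above, and neither was called once cells with 0.5% or more of other lineages' genes were left out.

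**Figure D5:**
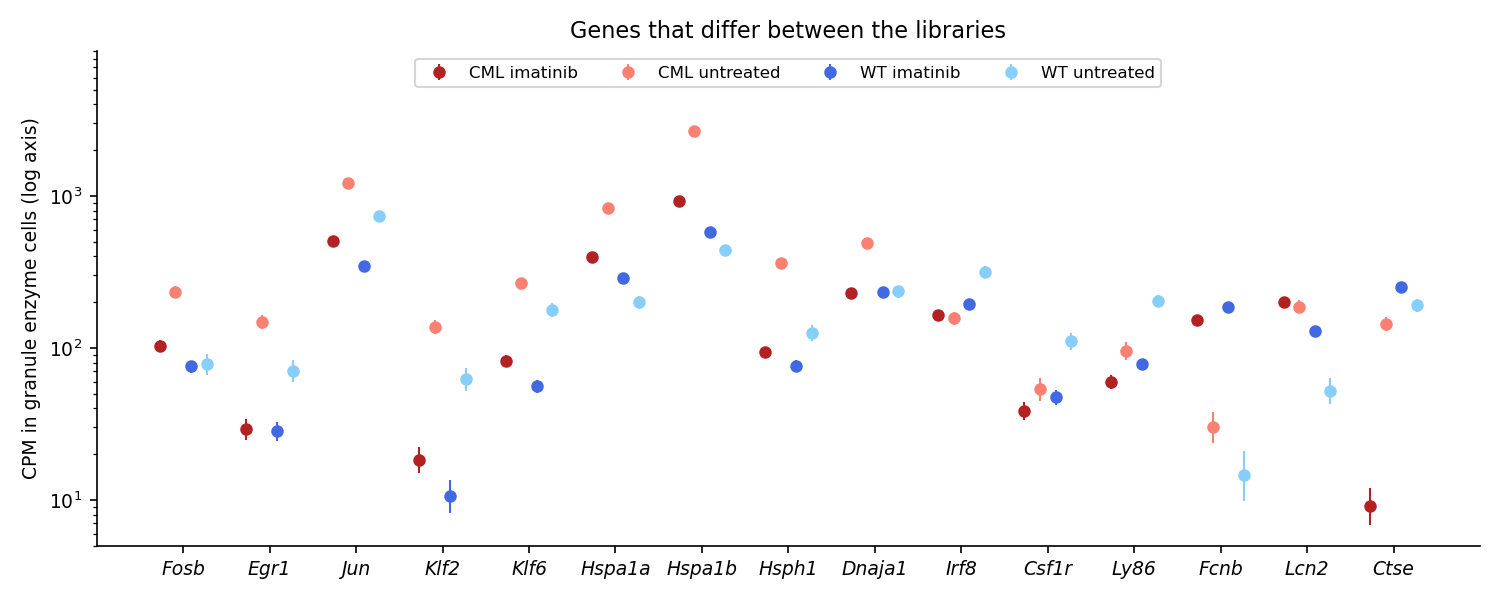
Level of 15 genes in granule enzyme cells of each library (CPM, log axis), with 95% exact intervals of counting error as bars. Ctse is at 9.16 CPM in imatinib-treated CML and between 143 and 252 CPM in the other 3 libraries, and Hspa1b is at 2650 CPM in untreated CML against 442 to 921 CPM elsewhere.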

How the data were processed

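Single-cell inDrop libraries of sorted LSK bone marrow cells, 1 for each of 4 groups, were analysed from the deposited tables of genes by cells. The tables hold scaled signal: the authors brought every cell to the same total. Per the submitters' processing notes, Partek 8.0, Bowtie 1.1.1 and the build GRCm38 (mm10) were used; their roles, the annotation and the filters are not given in the sources used here. Dividing each deposited column by its smallest nonzero value gave whole UMI counts (100% within 0.02), which replaced the deposited signal throughout. Kept cells had at least 500 UMIs and at most 20% mitochondrial UMIs. Enzyme cells held 5679899 UMIs in imatinib-treated CML, 2377067 in untreated CML, 6403792 in imatinib-treated WT and 2043141 in untreated WT marrow.

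UMIs were summed over the cells of a group and expressed as CPM. Log2 ratios have 95% exact conditional binomial intervals and shares exact binomial intervals; they cover counting error only. A gene was measured at 100 CPM or more in either group, and called at 2-fold or more with 20 UMIs or more in the higher group. A count of 0 was replaced by a floor of 3 counts. With 1 library per group no p-value was computed. The ratios were tested on simulated data. Of 32265 gene symbols, 30443 (94.4%) matched GENCODE vM21, and 352 of 354 listed genes were in the files.

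Named were the rule's genes and label markers, the 12 highest and 12 lowest called genes of each comparison, the 20 highest and 10 lowest over the rest in all libraries, and list members at 50 CPM or more; predicted, ribosomal and mitochondrial genes were left out of the ranking. The cells, gene lists and comparisons were chosen with earlier results of these data known. Alternatives changed the cell filters, depth, scaling, thresholds and enzyme range. Python 3.11.15, numpy 2.4.6, pandas 2.3.3, scipy 1.17.1 and edgeR 4.0.16 (TMM scaling factors only) were used.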

Additional observations from a re-analysis of the deposited data

Results flagged for a closer look

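With 1 library per group, none of the differences given here was tested. Listed are genes called at least 2-fold apart in 1 of a pair of comparisons whose counting interval in the other lay wholly on the opposite side of 0; smaller changes of sign are not listed. For imatinib over untreated enzyme cells, in CML and WT, there were 4 such genes. The CML ratio minus the WT ratio was -4.36 for Ctse, -1.92 for Hspa1b, -1.59 for Hspa1a and -5.51 for Prg2. For Prg2, 1 cell held 89.4% of the untreated CML UMIs and untreated WT cells had none, so a floor of 3 counts stands in for them.

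For CML over WT enzyme cells, without and with imatinib, there were 3 such genes. The untreated ratio minus the imatinib ratio was -2.28 for Ccl3, a chemokine gene, -1.31 for Mpeg1, a macrophage perforin gene, and 1.20 for Gatm. Ccl3 had 18.7 CPM in imatinib-treated CML, 58.5 in untreated CML, 7.96 in imatinib-treated WT and 121 in untreated WT cells. Mpeg1 had 91.6 CPM in imatinib-treated CML, 54.7 in untreated CML, 77.9 in imatinib-treated WT and 115 in untreated WT cells.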

How the results depend on the processing

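The share of enzyme cells kept its order, imatinib above untreated, under every setting tried. With a 0.5% threshold it was 72.5% in imatinib-treated CML, 17.8% in untreated CML, 75.4% in imatinib-treated WT and 16.1% in untreated WT marrow, and with 2% it was 37.2% in imatinib-treated CML, 1.58% in untreated CML, 41.5% in imatinib-treated WT and 2.44% in untreated WT marrow. At 1000 UMIs or more it was 71.0% in imatinib-treated CML and 76.7% in imatinib-treated WT, and with no limit on late neutrophil genes 68.0% in imatinib-treated CML and 68.8% in imatinib-treated WT. Thinning gave 61.6% in imatinib-treated CML, 9.70% in untreated CML and 10.3% in untreated WT marrow. Counts of genes at least 2-fold apart moved more. For imatinib over untreated in CML they were 406 in cells of 1000 to 3000 UMIs, 387 with a floor of 50 CPM and 110 with 200 CPM, and in WT 253, 241 and 65, with 194 after thinning. For CML over WT they were 124, 50 and 14 in untreated cells, with 102 after thinning and 93 above a 2% threshold. In imatinib-treated cells they were 22 with 50 CPM, 7 with 200 CPM, 6 above 2% and 22 among cells with 1 to 2%, a setting added after seeing the data. Cells of 1000 to 3000 UMIs numbered 1769 in imatinib-treated CML, 32 in untreated CML, 1471 in imatinib-treated WT and 44 in untreated WT marrow, and there 90 of 106 higher and 28 of 107 lower calls of imatinib over untreated were kept in CML and 53 of 79 and 16 of 50 in WT, and 4 of 17 and 3 of 8 of those of CML over WT in untreated cells. Reversed were Chka, a choline kinase gene, in imatinib-treated over untreated WT (0.056 at 1000 to 3000 UMIs), and, in untreated CML over WT, Klf2 (-1.20 there) and Prg2 (-1.17 above 2%); the cause was not tested. Of 923 values of named genes under alternatives, 696 stayed within their counting interval, 224 moved beyond it and 3 reversed. The 696 include 77 values for each of the floors of 50 and 200 CPM, which do not enter a ratio and could not move it. In cells of 1000 to 3000 UMIs, 58 of 76 values moved and 30 were no longer called. Above a 2% threshold 53 of 77 moved and 32 were no longer called. No paired analysis was possible because each group was 1 library. Genes below 100 CPM in both groups of a comparison were not called, which is a chosen floor. Enzyme cells of the untreated libraries held the fewest UMIs in sum, 2377067 in CML and 2043141 in WT marrow.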
